A study of Mus musculus with 2 samples.

Results

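In mouse heart, 39 genes of macrophages and other myeloid cells were examined. They were chosen by symbol from a given list, and all 39 were found among the 55536 annotated genes. For the comparison of macrophage states they were sorted by role into 18 core genes of macrophages and myeloid cells, 9 markers of resident macrophages, 7 genes of monocyte-derived and antigen-presenting cells and 5 genes of macrophages of the serosal cavities. The tissue was whole heart from 2 female B6CASTF1/J mice aged 2 months, hybrids of the C57BL/6 and CAST strains, with 1 total RNA library per animal and no second condition. Each library was made from 300 ng of RNA after ribosomal RNA reduction, with ERCC spike-ins, synthetic transcripts of known amount. The labels give tissue and not sorted cells, so a level is that of the whole organ.

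Macrophages are the main immune cells of the healthy heart. One population is seeded before birth and renews itself in the tissue; it carries Lyve1, Timd4 and Folr2, lacks the chemokine receptor Ccr2 and clears dying cells and debris. Another derives from blood monocytes that enter through Ccr2 and often carries class II molecules, which display peptides to T cells. The heart also lies in a serosal cavity, and the macrophages of the mouse peritoneal, pleural and pericardial cavities express a set of their own that includes Alox15, Retnla, Cd5l and the coagulation factors F5 and F10.

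Depth was nearly equal, at 41790009 reads on genes for animal 2 and 41862417 for animal 1. Levels are TPM, a relative abundance of transcripts that is corrected for length. The median gene of the 16133 with at least 20 reads had a log2 TPM ratio of 0.22 (animal 2 over animal 1), so a TPM higher by that much in animal 2 is the general shift of scale. Animals were therefore compared on reads scaled by TMM, a trimmed mean of the log ratios of genes. On that scale the median log2 ratio was -0.00 and 49.3% of genes were higher in animal 2. The tests compare 2 libraries by counting error and not conditions, so they include ordinary variation between animals. In bulk tissue, fewer cells of a type and less RNA per cell cannot be told apart. Cardiomyocyte genes, the defining markers of the labelled tissue, were abundant, with Myh6, the alpha myosin heavy chain, at 8371 TPM in animal 2 and 7602 TPM in animal 1.

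The 39 myeloid genes summed to 366 TPM in animal 2, against 259 TPM in animal 1, or 312 ± 75.7 TPM (SD, n = 2), a share of 0.0366% for animal 2 and 0.0259% for animal 1 of the TPM of all entries. The core class gave 226 TPM in animal 2, against 157 TPM in animal 1. The monocyte-derived and antigen-presenting class gave 74.7 TPM in animal 2, against 60.8 TPM in animal 1. Both animals had the same order of classes. The resident class gave 54.4 TPM in animal 2, against 37.9 TPM in animal 1, and the serosal class 10.5 TPM in animal 2, against 3.06 TPM in animal 1. The second place of the antigen-presenting class rested on Cd74, without which its other 6 genes averaged 32.4 ± 5.17 TPM, against 46.1 ± 11.7 TPM for the resident class (SD, n = 2 each). Most of the antigen-presenting sum came from Cd74 and the class II chains. The receptors Ccr2 and Cx3cr1 together gave only 0.64 TPM in animal 2 and 0.80 TPM in animal 1. The sum is therefore not a measure of monocyte-derived cells. Single genes ranged from 0.165 TPM for Ccr2 to 67.1 TPM for Lyz2 in the mean of both animals, and 31 of the 39 reached 1 TPM in both.

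**Figure D1:**
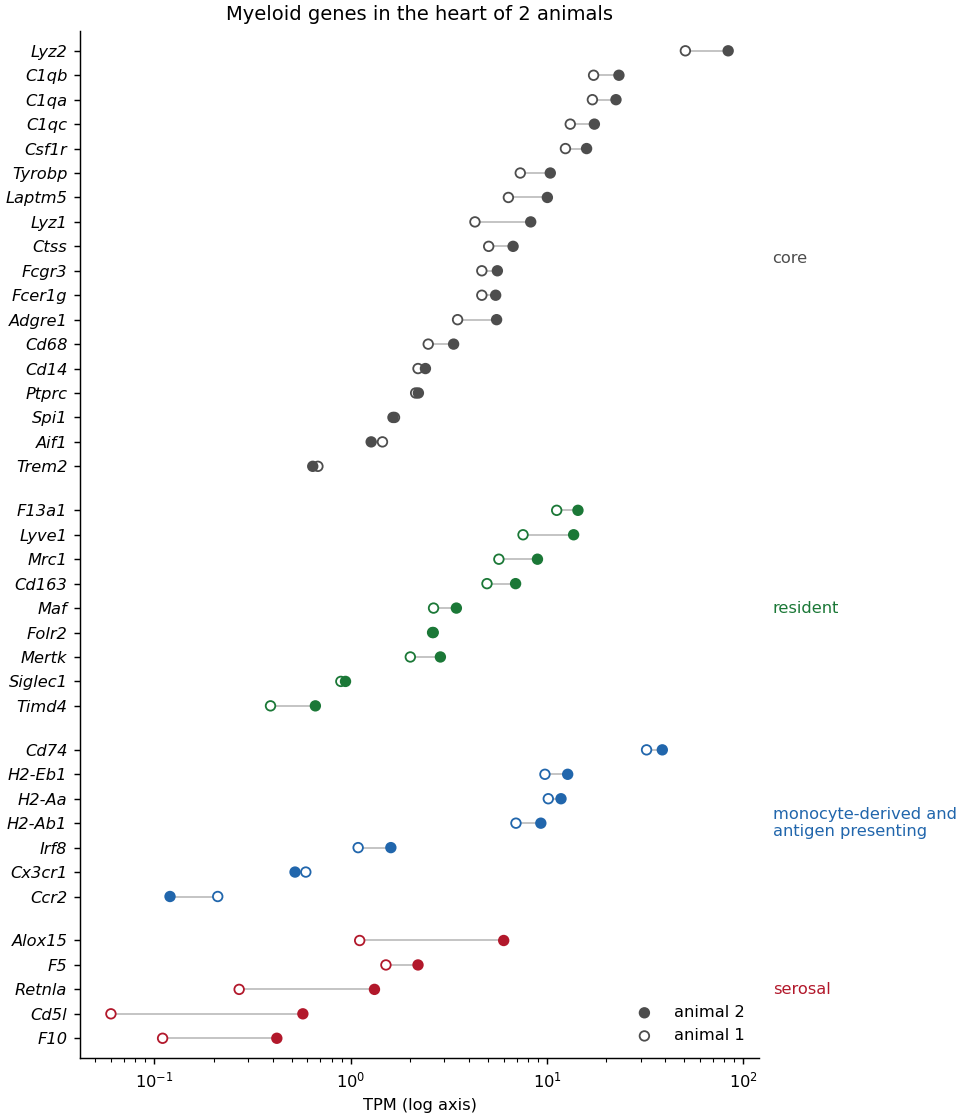
TPM (log axis) of the 39 genes by class in animal 2 (filled) and animal 1 (open), sorted within each class by mean, with a grey line joining the animals. Lyz2 stands highest at 83.6 TPM in animal 2, against 50.6 TPM in animal 1, and the widest gaps between animals are in the serosal class.

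All 39 genes had at least 20 reads and entered the comparison of animals. Of these, 31 had more scaled reads in animal 2, with a median log2 ratio of 0.20, against 49.3% and -0.00 over all genes tested. Only Alox15, Cd5l and Retnla differed by 2-fold or more at an adjusted p under 0.05 (exact binomial test with Benjamini-Hochberg adjustment over all 16133 genes). All 3 were higher in animal 2 and all belong to the serosal class. By the same rule 0.483% of all genes were higher and 0.893% were lower in animal 2. With no fold minimum 14 members passed, all higher in animal 2, against 6.6% of all genes higher and 4.75% lower. An exact negative binomial test that also allows for a pooled variation between libraries passed only Alox15 and Cd5l among the members, with or without the fold minimum, and 139 genes in all at 2-fold. That variation was 1 value for all genes, estimated from the same 2 libraries, so it is not independent of the difference tested.

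**Figure D2:**
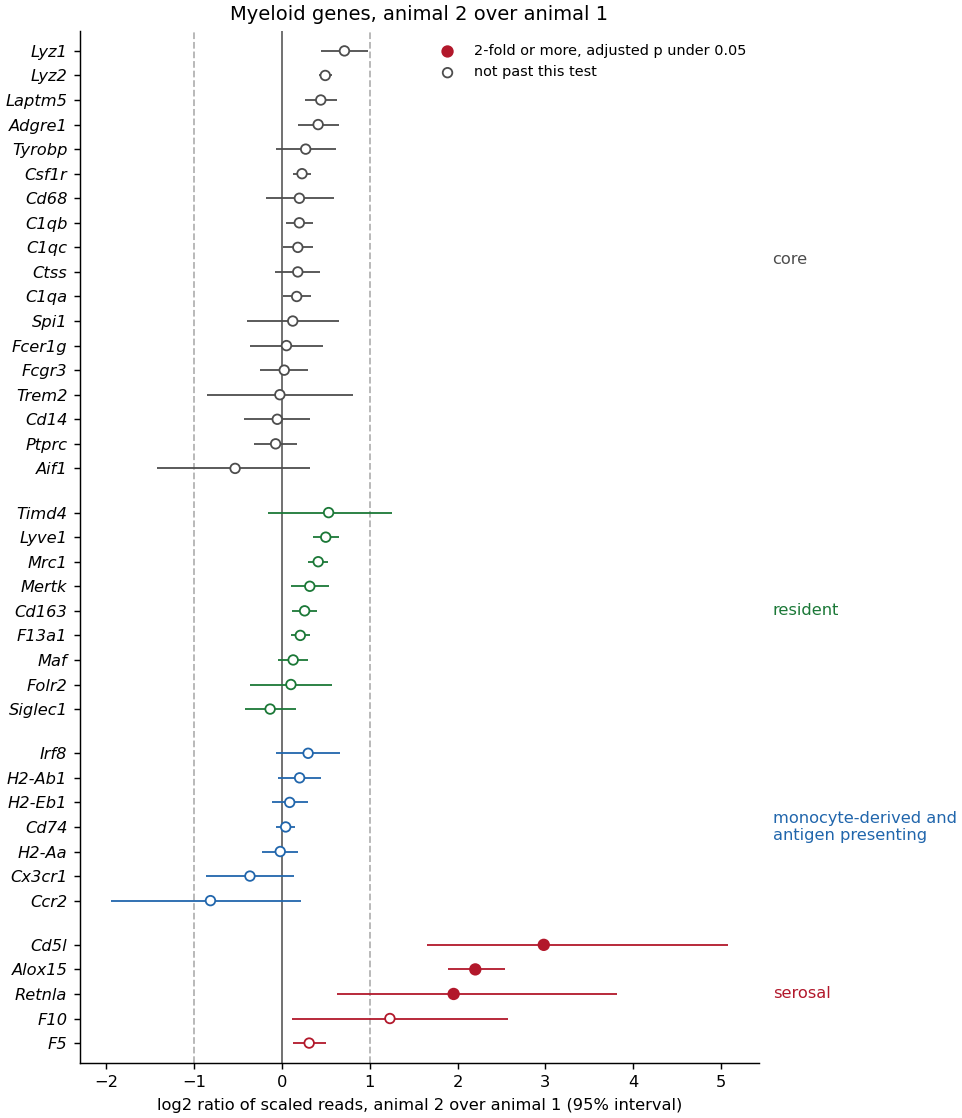
Log2 ratio of scaled reads, animal 2 over animal 1, for each gene by class, with the exact 95% interval of counting error; the solid line marks no difference and dashed lines mark 2-fold. Filled points are Cd5l, Alox15 and Retnla, at 2.98, 2.20 and 1.96.

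Among core genes, lysozyme and complement C1q led. Lyz2, the lysozyme of macrophages, which digests bacterial cell walls, had 3395 reads in animal 2 and 2286 in animal 1 (83.6 and 50.6 TPM), and it alone gave 22.9% of the summed TPM of the members in animal 2 and 19.6% in animal 1. It was 1.41-fold higher in animal 2 (95% interval 1.34 to 1.48; adjusted p = 4.08e-35, exact binomial test), but the negative binomial test did not pass it (adjusted p = 0.254). Lyz1, its neighbour 5475 bases away on chromosome 10, had 320 reads in animal 2 and 185 in animal 1. It was 1.64-fold higher in animal 2 (1.36 to 1.98), the largest ratio in the core class. The annotated transcripts of Lyz1 and Lyz2 were 96.0% identical over 1262 aligned bases, so the split of reads between them is uncertain. Lyz1 took 8.61% of their joint reads in animal 2 and 7.49% in animal 1, but 5.53% in animal 2 and 5.66% in animal 1 in a second quantification, which the authors made from the same libraries in another way. Lysozymes carried much of the class ratio: summed core reads were 1.24-fold higher in animal 2 (1.20 to 1.28) and 1.15-fold (1.11 to 1.19) without Lyz1 and Lyz2.

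The 3 chains of C1q, the recognition part of the classical complement pathway, lie next to each other on chromosome 4 and had nearly equal levels. C1qb (chromosome 4, 136880129 to 136886187) stood at 23.2 TPM in animal 2, against 17.3 TPM in animal 1, and C1qa (136895917 to 136898803) at 22.4 TPM in animal 2, against 17.0 TPM in animal 1. C1qc (136889804 to 136893065) stood at 17.4 TPM in animal 2 and 13.1 TPM in animal 1. Their reads together were 1.14-fold higher in animal 2 (1.07 to 1.21), and none of the chains passed on its own, with adjusted p from 0.0825 to 0.190 (exact binomial test). The log2 ratios of the chains spanned only 0.17 to 0.20. Whether they passed without a fold minimum depended on the setting. With libraries scaled by total reads all 3 passed (adjusted p from 0.00290 to 0.0133, exact binomial test). Only C1qb passed with spike-in scaling (0.0345) and only C1qa in the second quantification (0.0236). In the other settings none did.

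Csf1r, the receptor that macrophages need for survival, had 1618 reads in animal 2 and 1309 in animal 1 (15.9 and 12.4 TPM) and was 1.17-fold higher in animal 2 (1.09 to 1.26; adjusted p = 3.94e-04, exact binomial test). Opposite-strand exons of Hmgxb3 overlap 15.1% of its exon bases, and the sources used here do not state if the counting was strand-specific. Its ligand Csf1 stood at 13.2 TPM in animal 2, against 11.3 TPM in animal 1, with no difference past the test (adjusted p = 0.695). Laptm5, a lysosomal protein of blood cells, and Adgre1, which encodes the F4/80 antigen, were 1.36-fold and 1.33-fold higher in animal 2 (595 against 415 reads, and 375 against 267 reads) and complete the 5 core genes that passed without a fold minimum.

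The other core genes did not pass. The signalling adaptors Tyrobp and Fcer1g had 163 and 105 reads in animal 2 and 128 and 96 reads in animal 1. The phagocytic receptor Fcgr3 had 231 reads in animal 2 and 215 in animal 1, and Trem2, a lipid receptor, had 27 in animal 2 and 26 in animal 1. The lysosomal protease Ctss had 281 reads in animal 2 and 235 in animal 1, and the lysosomal glycoprotein Cd68 had 126 in animal 2 and 104 in animal 1. The fold ratios of these 6 genes lay between 0.984 and 1.21. Cd14, the co-receptor for bacterial lipopolysaccharide, had 121 reads in animal 2 and 119 in animal 1, and Ptprc, the CD45 phosphatase of all leukocytes, had 281 in animal 2 and 280 in animal 1. Spi1, which encodes PU.1, the transcription factor on which myeloid cells depend, had 69 reads in animal 2 and 60 in animal 1, and Aif1, the macrophage marker IBA1, had 21 in animal 2 and 29 in animal 1. Aif1 had the lowest ratio of the class (log2 ratio of -0.53), with an interval of 0.372 to 1.25 on the fold scale, so at this depth neither direction is shown.

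Resident markers were led by F13a1 and Lyve1. F13a1, the coagulation factor XIII A chain made by tissue macrophages and platelets, stood at 14.4 TPM in animal 2 and 11.2 TPM in animal 1. Lyve1, a hyaluronan receptor shared by resident macrophages and lymphatic endothelium, stood at 13.7 TPM in animal 2 and 7.54 TPM in animal 1. The mannose receptor Mrc1 stood at 8.93 TPM in animal 2 and 5.68 TPM in animal 1. Each had more scaled reads in animal 2: Lyve1 was 1.41-fold higher (1.27 to 1.57; adjusted p = 1.86e-09), Mrc1 1.33-fold (1.23 to 1.44; adjusted p = 1.24e-11) and F13a1 1.16-fold (1.07 to 1.25; adjusted p = 0.00193, exact binomial test). Cd163, the haptoglobin-haemoglobin receptor, and Mertk, a receptor for dying cells, also passed without a fold minimum, at 1.20-fold (925 against 733 reads) and 1.25-fold (401 against 305 reads). None of these 5 passed the negative binomial test.

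The remaining 4 resident genes did not pass. Maf, a transcription factor of mature macrophages, had 619 reads in animal 2 and 537 in animal 1. The folate receptor Folr2 had 85 reads in animal 2 and 75 in animal 1, and 63.1% of its exon bases lie opposite exons of Gm10602, which had 76 in animal 2 and 63 in animal 1. Siglec1, a sialic acid receptor, had 196 reads in animal 2 and 204 in animal 1, the 1 resident gene with fewer scaled reads in animal 2. Timd4, a phosphatidylserine receptor of long-lived resident and of serosal macrophages, was the lowest of the class, with 46 reads in animal 2 and 30 in animal 1 (0.66 and 0.39 TPM; ratio 1.45, 0.898 to 2.39). As a class, resident reads were 1.22-fold higher in animal 2 (1.18 to 1.27). Of the 15 further genes listed for resident macrophages, 11 had enough reads, 9 of them higher in animal 2 with a median log2 ratio of 0.24. None passed at 2-fold and 3 passed without a fold minimum, all higher: Stab1, Fcna and Igf1, all named after their values were seen.

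Other cell types express some of these genes, and their markers were also measured. Lymphatic endothelial genes, of which Prox1 and Ccl21a were the highest, had a median log2 ratio of 0.02 over 6 genes, 3 higher and 3 lower in animal 2. Flt4, named after its values were seen, passed without a fold minimum, at 1.16-fold higher in animal 2 (adjusted p = 0.0129, exact binomial test). Blood endothelial genes were 1.12-fold higher in animal 2 in summed reads and fibroblast genes 1.18-fold, close to the 1.15-fold of the core genes without lysozymes, while cardiomyocyte genes stood at 0.971. Their part in the ratios of the core and resident classes was not tested.

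Ccr2, the receptor of monocyte entry, was the lowest of all members. It had 13 reads in animal 2 and 22 in animal 1 (0.12 and 0.21 TPM), and Cx3cr1, the fractalkine receptor of patrolling monocytes and of some resident macrophages, had 63 in animal 2 and 77 in animal 1 (0.52 and 0.59 TPM). Their log2 ratios were -0.81 for Ccr2 and -0.36 for Cx3cr1, and neither passed the test (adjusted p = 0.396 for Ccr2 and 0.435 for Cx3cr1, exact binomial test). Their intervals, 0.259 to 1.16 and 0.547 to 1.10, include no difference. Their joint reads, 76 in animal 2 and 99 in animal 1, had a ratio of 0.728 (0.533 to 0.991). These are only 2 of the 7 genes of the class. They have its lowest ratios, so the interval of their sum does not stand for the class. Over all 7 genes of the class the ratio of summed reads was 1.04 (0.984 to 1.09). In mean TPM Lyve1 stood at 10.6 and Ccr2 at 0.165. Irf8, a transcription factor of monocytes and dendritic cells, had 148 reads in animal 2 and 114 in animal 1 and did not pass (adjusted p = 0.338). Of the 13 further monocyte genes, 10 had enough reads, 4 of them higher in animal 2 with a median log2 ratio of -0.15. The summed reads of all 13 went the other way, with a ratio of 1.16 (1.08 to 1.24). None passed at 2-fold, and the 2 that passed without a fold minimum, Itgam and Hp, were higher in animal 2; both were named after their values were seen.

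Class II genes were far above these receptors and close to equal between the animals. Cd74, the invariant chain that guides class II molecules to the endosome, stood at 38.6 TPM in animal 2, against 32.1 TPM in animal 1, with 1533 and 1411 reads (ratio 1.03, 0.958 to 1.11; adjusted p = 0.730, exact binomial test). The alpha and beta chains followed. H2-Eb1 stood at 12.7 TPM in animal 2, against 9.75 TPM in animal 1, H2-Aa at 11.8 TPM in animal 2, against 10.1 TPM in animal 1, and H2-Ab1 at 9.29 TPM in animal 2, against 6.94 TPM in animal 1. No chain passed the test, and their joint reads had a ratio of 1.06 (0.970 to 1.15). H2 genes vary strongly between mouse strains, and how well reads of the CAST copies were placed was not tested. Among 13 tested genes of a wider class II presentation list, none passed the 2-fold test. H2-DMb2 (45 reads in animal 2 and 21 in animal 1; ratio 2.01, adjusted p = 0.0549, exact binomial test) and Cd80 (22 against 10 reads; ratio 2.03, adjusted p = 0.236), both named after their values were seen, were past 2-fold in ratio alone.

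The promoters of H2-Aa and H2-Eb1 are shown because class II genes share a pair of control elements, the X box and the Y box, which bind the factors that recruit the activator Ciita. Both come from RefSeq (GRCm38.p6), cover 250 bases before to 50 after the start and are written along the gene's strand: chr17:34287774-34288073 on the minus strand for H2-Aa and chr17:34305617-34305916 on the plus strand for H2-Eb1. Capitals mark the searched motifs, AGNAACNG for the X box and CTGATTGG for the Y box, on either strand.

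H2-Aa: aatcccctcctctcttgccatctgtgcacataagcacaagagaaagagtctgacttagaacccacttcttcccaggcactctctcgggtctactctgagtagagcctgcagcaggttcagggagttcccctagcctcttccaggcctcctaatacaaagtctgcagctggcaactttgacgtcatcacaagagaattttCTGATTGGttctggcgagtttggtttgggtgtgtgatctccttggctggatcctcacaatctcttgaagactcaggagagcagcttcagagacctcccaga

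H2-Eb1: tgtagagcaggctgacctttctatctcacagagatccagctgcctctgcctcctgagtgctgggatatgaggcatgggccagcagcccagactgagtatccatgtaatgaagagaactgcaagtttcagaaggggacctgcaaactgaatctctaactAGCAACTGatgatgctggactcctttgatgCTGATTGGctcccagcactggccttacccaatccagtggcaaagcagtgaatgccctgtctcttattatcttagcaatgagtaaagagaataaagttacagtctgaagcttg

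The Y box began 51 bases before the start in H2-Aa and 62 bases before it in H2-Eb1. H2-Eb1 also had an X box match beginning 92 bases before the start, and these letters were not in the window of H2-Aa. Over the 32851 promoters of the table the Y box letters were in 4.10%, the X box letters in 17.4% and both in 0.697%. Of the 27 members with a promoter in the table, 3 had the Y box (H2-Aa, H2-Eb1 and Irf8), 10 the X box and 1, H2-Eb1, both. Members were counted per gene over their 32 promoters, so these counts are not directly comparable with the shares per promoter.

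The serosal genes differed most between the animals. Alox15 (ENSMUSG00000018924.6; mm10 chromosome 11, 70344152 to 70352031), a lipoxygenase that oxidises fatty acids such as arachidonate, had 463 reads in animal 2 and 95 in animal 1 (6.01 and 1.11 TPM). This made it 4.60-fold higher in animal 2 (3.70 to 5.82; adjusted p = 1.17e-52, exact binomial test), and it also passed the negative binomial test (adjusted p = 1.05e-18). Cd5l (ENSMUSG00000015854.7; chromosome 3, 87357881 to 87371073), a secreted scavenger receptor protein that keeps macrophages alive, had 37 reads in animal 2 and 4 in animal 1 (0.57 and 0.06 TPM). Its ratio was the largest of all members, 7.90-fold, and the least precise (3.15 to 33.9; adjusted p = 4.40e-06, exact binomial test, and 1.42e-04 in the negative binomial test). Retnla (ENSMUSG00000061100.4; chromosome 16, 48842551 to 48844461), a secreted protein of alternatively activated mouse macrophages, had 22 reads in animal 2 and 5 in animal 1 (1.32 and 0.27 TPM), a 3.88-fold difference (1.54 to 14.1; adjusted p = 0.0191, exact binomial test). It did not pass the negative binomial test (adjusted p = 0.150) or the exact binomial test on the second quantification (log2 ratio 1.44; adjusted p = 0.140).

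The coagulation factors of the class had smaller ratios. F10 had 23 reads in animal 2 and 9 in animal 1 (0.42 and 0.11 TPM) and did not pass (ratio 2.35, 1.08 to 5.95; adjusted p = 0.131, exact binomial test). F5, with 539 reads in animal 2 and 412 in animal 1 (2.20 and 1.51 TPM), was 1.24-fold higher (1.09 to 1.41; adjusted p = 0.0129) and so passed only without the fold minimum. All 5 genes were higher in animal 2, with a median log2 ratio of 1.96. Their summed reads were 1.96-fold higher (1.76 to 2.18), a value set by the 2 most abundant genes: it was 4.57-fold without F5 and 1.37-fold without Alox15. The class made up 2.88% of the summed TPM of the members in animal 2 and 1.18% in animal 1.

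The promoters of Cd5l and Retnla, from the same RefSeq table, are shown because both genes were at least 2-fold higher in animal 2; Alox15 is named only. They lie at chr3:87357631-87357930 and chr16:48842359-48842658, both on the plus strand. Capitals mark GAGGAA, the core of the site bound by PU.1, which reads TTCCTC where it lies on the other strand, and in Retnla also TATAAA, the TATA box.

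Cd5l: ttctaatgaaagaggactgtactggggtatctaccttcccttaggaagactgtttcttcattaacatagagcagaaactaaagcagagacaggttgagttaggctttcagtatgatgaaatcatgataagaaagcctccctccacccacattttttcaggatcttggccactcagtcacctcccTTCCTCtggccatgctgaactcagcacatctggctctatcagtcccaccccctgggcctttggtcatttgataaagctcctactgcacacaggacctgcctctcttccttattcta

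Retnla: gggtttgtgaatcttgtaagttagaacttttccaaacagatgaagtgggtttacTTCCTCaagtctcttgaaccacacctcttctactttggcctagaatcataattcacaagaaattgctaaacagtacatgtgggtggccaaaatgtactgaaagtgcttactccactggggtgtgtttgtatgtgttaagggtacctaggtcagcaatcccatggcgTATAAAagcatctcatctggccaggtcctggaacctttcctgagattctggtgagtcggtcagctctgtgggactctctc

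The GAGGAA match, on the opposite strand in both, began 66 bases before the start in Cd5l and 196 bases before it in Retnla, where TATAAA began 30 bases before the start. GAGGAA was in 28.3% of all promoters and in 13 of the 27 members, and TATAAA in 13.6% of all promoters and in 5 of the 27. Here too members were counted per gene, over 32 promoters, and the shares per promoter. Cd5l also held an X box match on the opposite strand, left in lower case. The letters of the X box and GAGGAA can overlap and did so in C1qb.

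Genes from outside the members were set beside the serosal class, from lists of cells that share these markers or the same site. Of 12 further genes of serosal cavity macrophages 10 had enough reads, 9 of them higher in animal 2 with a median log2 ratio of 0.35. Selp, P-selectin, passed at 2-fold (113 reads in animal 2 and 44 in animal 1; adjusted p = 4.67e-06, exact binomial test), and Prg4 and Garnl3, named after their values were seen, passed without the fold minimum (595 against 296 reads, and 138 against 77 reads). Gata6, the transcription factor that defines macrophages of the peritoneal cavity but is also made by cardiomyocytes, had 2712 reads in animal 2 and 2542 in animal 1 and did not pass (adjusted p = 0.891). Eosinophils also express Alox15 in mice. The 8 eosinophil genes had 15 reads in animal 2 and 7 in animal 1 (ratio 2.03, 0.780 to 5.89), and none had enough reads to be tested. Of these genes, 4 had 0 reads in both animals, Siglecf, Ccr3 and Epx among them. Ear2 had 7 reads in animal 2 and 6 in animal 1, and Il5ra 7 in animal 2 and 0 in animal 1. In the second quantification Il5ra had 32 reads in animal 2 and 26 in animal 1, so its difference depends on the method. The part of eosinophils in the Alox15 reads was not tested.

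Markers of the tissue around the heart also differed. Among 8 mesothelial genes, which mark the lining of the serosal cavity, Slpi was 2-fold or more higher in animal 2 (229 against 44 reads). The other 7 had a ratio of 0.862 in summed reads, against 0.922 for all 8, and none of them passed at 2-fold. Without the fold minimum 2 of the 7 passed, both lower in animal 2 and named after their values were seen. They were Lrrn4 (ratio 0.771, adjusted p = 0.0251) and Muc16 (ratio 0.821, adjusted p = 8.88e-04, exact binomial test). Among adipocyte genes, Adipoq, Cfd, Cidec and Pck1, 4 of the 7 tested, were 2-fold or more higher in animal 2, with a median log2 ratio of 1.20 for the list. Plin4, the most abundant gene of the list, went the other way, with 12491 reads in animal 2 and 13290 in animal 1. It passed without the fold minimum (ratio 0.891, adjusted p = 2.04e-18, exact binomial test). The summed reads of the list, Plin4 included, had a ratio of 0.998. This sum was mostly Plin4, since the whole list had 15121 reads in animal 2 and 14358 in animal 1. Of the 7 tested genes, 6 were higher in animal 2 and 1, Plin4, was lower. Of 7 tested B cell genes, Igkc was higher at 2-fold (87 against 28 reads), and Ighm (339 against 185 reads) passed without the fold minimum. In the second quantification Igkc had only 34 reads in animal 2 and 19 in animal 1. Of other leukocytes, mast cell genes had a median log2 ratio of 0.73 over 6 tested genes, none past 2-fold, and 11 neutrophil genes had 87 reads in animal 2 and 81 in animal 1. None of the 4 T and NK cell genes or the 3 dendritic cell genes tested passed. The part of these cells in the serosal result was not tested.

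**Figure D3:**
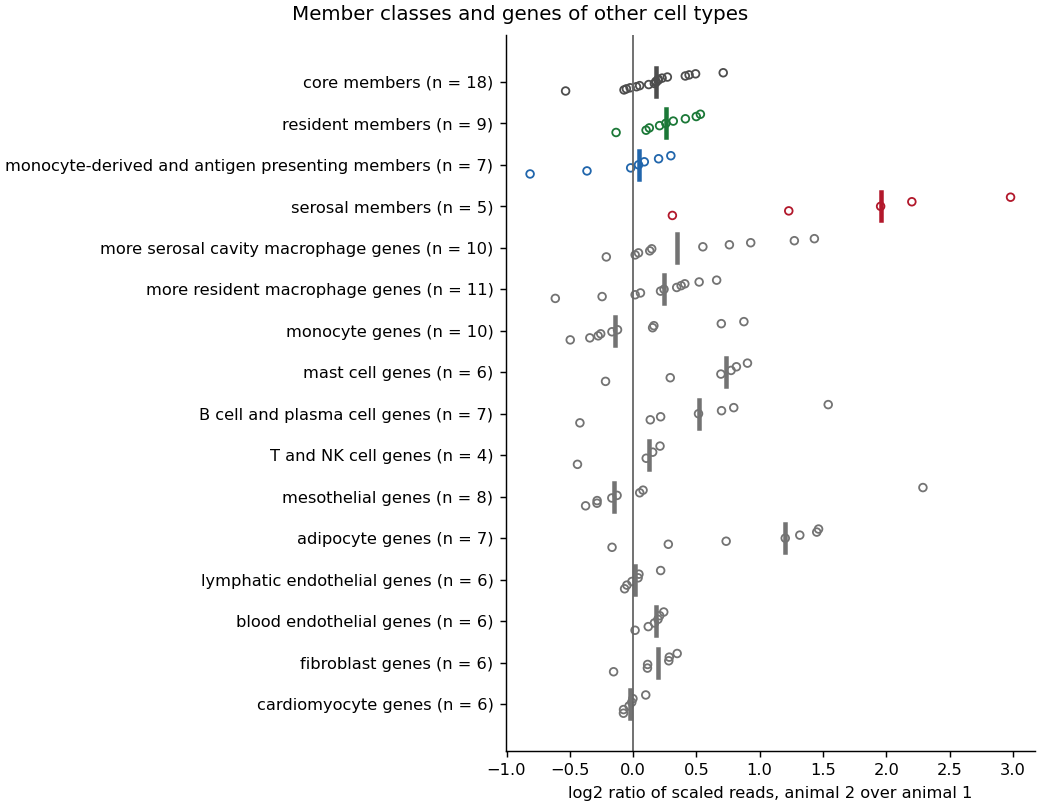
Log2 ratio of scaled reads, animal 2 over animal 1, of tested genes in the 4 member classes (colour) and in lists of further macrophage genes and other cell types (grey); each circle is a gene, thick bars are medians and the vertical line is the median of all genes. The serosal members have a median of 1.96, adipocyte genes 1.20 and cardiomyocyte genes -0.02.

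In the lists of the members' pathways few genes passed at 2-fold. Of 18 tested complement genes, Cfd, an adipocyte product, passed. Of 15 myeloid transcription factor genes, Irf4 passed (98 reads in animal 2 and 42 in animal 1; adjusted p = 1.93e-04, exact binomial test), a factor of alternatively activated macrophages that is also used by B cells. Of 9 tested lipoxygenase and eicosanoid genes, Ltc4s, the leukotriene C4 synthase, passed (80 against 36 reads). Of 11 coagulation genes, Plaur, the urokinase receptor, passed (69 against 31 reads). All 4 were higher in animal 2, and of these Cfd and Irf4 also passed the negative binomial test (adjusted p = 4.73e-08 and 0.0238). No gene passed at 2-fold among the 15 tested for Fc receptor signalling, the 14 for efferocytosis, the 10 of the lysosome, the 8 ligand genes or the 6 inflammatory genes.

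Transcript shares were read for members with at least 5 TPM and a second transcript at 10% or more in both animals, and for members whose quantifications differed. Lyve1 gave 39.5% of its TPM in animal 2 and 30.8% in animal 1 to Lyve1-202, annotated as a retained intron. The coding transcript Lyve1-201 alone stood at 8.26 TPM in animal 2 and 5.21 TPM in animal 1. In H2-Eb1 the leading transcript in both animals, H2-Eb1-205, is annotated as a target of nonsense-mediated decay, with 59.6% in animal 2 and 54.4% in animal 1, and it led in the second quantification too (70.1% in animal 2 and 69.9% in animal 1). Cd74 divided its TPM between a short and a long coding transcript alike in both animals, with 34.9% in animal 2 and 35.5% in animal 1 for the long Cd74-202, which holds an extra exon of 192 bases.

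Other splits changed with the animal or the method. F13a1-201 had 69.8% of the gene's TPM in animal 2 and 39.5% in animal 1, with F13a1-202 at 9.0% in animal 2 and 33.9% in animal 1. In the second quantification F13a1-202 was at about 0 in both, so this difference is uncertain. Cd163-202 had 22.0% in animal 2 and 4.60% in animal 1, and 31.5% in animal 2 and 11.7% in animal 1 in the second quantification. Tyrobp-201 led with 82.6% in animal 2 and 77.3% in animal 1, but the second quantification gave nearly all of Tyrobp to Tyrobp-202. Minor coding transcripts Csf1r-205 and Laptm5-210, at 23.6% and 27.7% in animal 2 and 27.8% and 15.7% in animal 1, were listed at 0 there, and Fcgr3-204, at 25.7% in animal 2 and 18.9% in animal 1, was at about 0. Ctss-201 and Ctss-202 are equally long and were split differently in each case. Aif1-205, a retained intron, had 65.0% of Aif1 in animal 2 and 39.1% in animal 1, and H2-Ab1-201, the leading coding transcript, had 78.9% of H2-Ab1 in animal 2 and 73.7% in animal 1.

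The second quantification gave member levels of 0.681 to 1.60 times those of the gene table, with a median of 1.15. Adgre1 was lowest, at 0.681, and H2-Ab1 (1.60), Retnla (1.56) and Aif1 (1.54) were more than 1.5 times higher. Retnla has a single transcript, so its difference does not involve a split between its own transcripts. No member had a spread of read assignment above 10% of its reads.

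**Figure D4:**
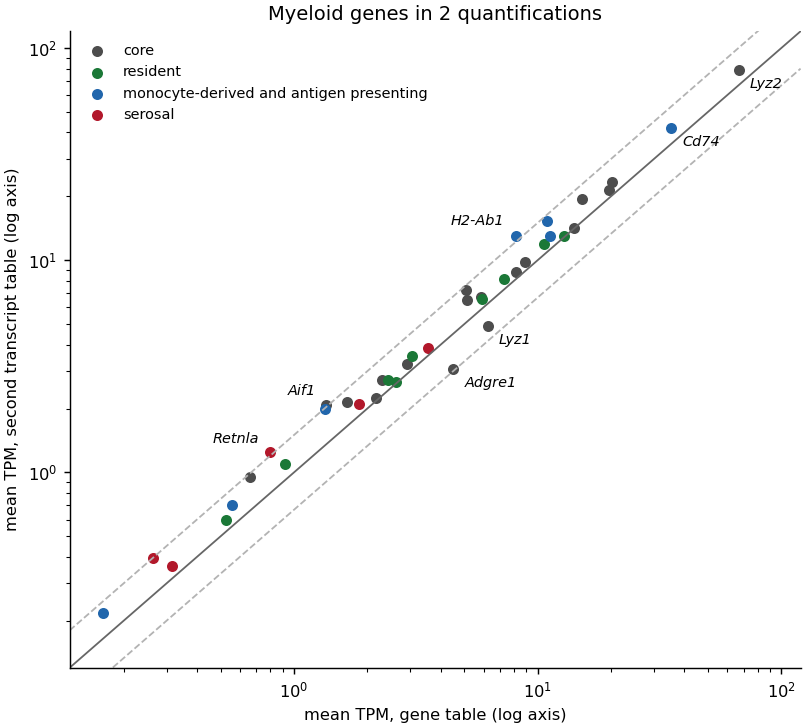
Mean TPM of each gene over both animals in the gene table (x, log axis) and the second transcript table (y, log axis), coloured by class; the solid line is equality and dashed lines 1.5-fold. H2-Ab1, Retnla and Aif1 lie above the upper dashed line and no gene lies below the lower one, with Adgre1 nearest it at 0.681 times.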

How the data were processed

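Total RNA was sequenced from heart of 2 animals of 1 group, which the labels number as separate biological replicates under 1 donor entry. Per the file headers, the deposited gene table and first transcript table hold expected counts (estimated reads, not normalised) and TPM computed by the authors over all entries, with the percent of a gene's TPM per transcript and, as a score, the posterior standard deviation of each count, called the spread of read assignment. A further deposited transcript table, in another layout, gives estimated counts and TPM, which were summed per gene here and called the second quantification. The labels name mm10; an aligner and filters are not stated in the sources used here. Entries with a number for a gene identifier (26248 entries, with 2 reads in animal 2 and 4 in animal 1) stayed out. Names and coordinates came from GENCODE M21.

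Expected counts were rounded, genes with at least 20 reads in total kept, and libraries scaled by TMM in edgeR 4.0.16 (R 4.3.3). An exact binomial test, two-sided, was run per gene. A call needed a Benjamini-Hochberg adjusted p under 0.05 and at least 2-fold. Its trial on simulated data had counting error only, so it does not cover variation between animals or changes in genes with few reads. Quasi-likelihood tests have no second group here. Log2 ratios used a prior count of 0.5; 95% intervals are exact binomial and, as reads carry no molecular identifiers, cover counting error only. A count of 0 allows 3 reads, 0.0718 CPM in animal 2 and 0.0717 in animal 1. Alternatives were total reads, spike-ins and DESeq2 1.42.0 size factors as scaling, no filter or 100 reads, other fold minimums and prior counts, the second quantification, rescaled TPM, each animal alone, other class assignments and edgeR's exact negative binomial test with a pooled coefficient of variation of 0.0829.

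All members are accounted for. Further genes are the 2 with the highest mean TPM in a list and those past the 2-fold test, unless marked as named after their values were seen; of these, only genes that a result turns on are printed. The members and lists (274 genes in 25 lists) were chosen with earlier results of these data known. Promoters came from RefSeq (27 of 39 members matched).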

Additional observations from a re-analysis of the deposited data

How the results depend on the processing

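Rescaled to nuclear protein-coding genes, summed TPM was 742 for all members, 455 core, 110 resident, 162 monocyte-derived and antigen-presenting, and 15.6 serosal; the second quantification gave 86.4 TPM for the monocyte-derived and antigen-presenting class. These levels depend on what TPM is relative to, but the order of the classes was the same. The 3 members at 2-fold were Alox15, Cd5l and Retnla under total-read, spike-in and DESeq2 scaling, with no filter and with a prior count of 2. Alox15 and Cd5l alone passed in the second quantification and under the negative binomial test, where Retnla did not. With at least 100 reads, 1 member, Alox15, passed, since only 32 members were tested. With no fold minimum 14 passed, and at 1.5-fold 4, with Lyz1. Sums chosen after seeing the data gave serosal ratios of 1.37 without Alox15 and 4.57 without F5, and a core ratio of 1.15 without Lyz1 and Lyz2. Other sums over part of a class or list were also not among the planned results.

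Of 305 ratios of single members under an alternative, 295 kept direction and side of the 2-fold call. Passing without a fold minimum was not part of this count and depended more on the setting. There 14 members passed in the main setting, 17 with total-read scaling and 2 under the negative binomial test. In 4 members with ratios near 1 the sign turned: log2 ratios were 0.026 (total reads) and 0.076 (second quantification) for Cd14, 0.060 (total reads) and 0.0066 (spike-ins) for H2-Aa, 0.0076 (total reads) for Ptprc, and 0.056 (total reads), 0.0023 (spike-ins) and 0.26 (second quantification) for Trem2; the cause was not tested. No paired analysis was possible because there is 1 group. Depth limits Ccr2, F10, Retnla and Cd5l most, with 27 to 41 reads over both animals.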
